A study of Rattus norvegicus with 6 samples.

Results

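The immediate-early genes Arc, Fos, Jun, Junb, Egr1, Egr2, Egr3, Nr4a1, Nr4a3 and Nptx2 were followed across the hippocampus of rats bred for opposite avoidance learning. They were represented by every probe set whose platform annotation named exactly 1 gene, that gene being among these 10. This gave all 10 genes, out of 4736 named on the array, and 23 of the 8799 probe sets on the array, with 4 each for Jun and Egr1, 3 each for Fos and Nr4a3, 2 each for Junb, Nr4a1 and Nptx2, and 1 each for Arc, Egr2 and Egr3. The animals were Syracuse High Avoidance (SHA) rats and Syracuse Low Avoidance (SLA) rats, lines that learn two-way active avoidance well and poorly. Both lines had been tested in that task, in which crossing a shuttle box at a signal avoids a shock, and whole hippocampi were taken 2 weeks later. Each line was measured as 3 pools of 3 rats, 1 array per pool, so the pool was the replicate (n = 3 per line throughout). No rats without testing were among the samples, and the age and sex of the animals were not given in the sources used here.

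Immediate-early genes are switched on within minutes of strong neuronal activity, without new protein synthesis, and their RNA usually decays again within hours. Calcium and cAMP signals and the ERK kinase cascade reach their promoters through CREB, which binds cAMP response elements, and through serum response factor, which binds CArG boxes. In the hippocampus they are widely used as marks of recent activity, for example after exploration, learning or seizures. Most of the members encode transcription factors, whereas Arc acts in AMPA receptor endocytosis and Nptx2 is a secreted pentraxin that clusters AMPA receptors at synapses. In a bulk sample, fewer cells of a type and less RNA per cell cannot be told apart.

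A promoter window, from 250 bases before to 50 bases after the transcription start, was held for 5 of the 10 genes in the RefSeq table of build GRCr8. They are shown because these are the elements through which activity is known to act on such genes. The stretches read 5′ to 3′ on the gene's strand, with capitals for a CArG box, for the core TGACG of a cAMP response element on either strand (read as CGTCA on the other), and for the Egr motif GCGTGGGCG or GCGGGGGCG on either strand (the second read as CGCCCCCGC on the other).
Egr2: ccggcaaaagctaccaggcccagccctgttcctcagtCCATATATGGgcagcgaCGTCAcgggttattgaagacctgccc
Nr4a1: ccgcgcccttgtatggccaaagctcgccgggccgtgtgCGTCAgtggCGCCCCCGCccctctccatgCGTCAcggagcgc
Nptx2: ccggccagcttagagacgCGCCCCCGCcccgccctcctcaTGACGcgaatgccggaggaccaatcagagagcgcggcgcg
Junb: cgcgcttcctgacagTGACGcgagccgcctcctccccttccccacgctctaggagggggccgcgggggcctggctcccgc
These stretches lie at chr20:21054482-21054561 on the minus strand (Egr2), chr7:134260018-134260097 on the plus strand (Nr4a1), chr12:15162096-15162175 on the minus strand (Nptx2) and chr19:40080956-40081035 on the plus strand (Junb). A CArG box stood in 2 of the 5 windows, those of Egr1 and Egr2, against 1.64% of 27457 promoter windows of the same length. Both genes carried CCATATATGG at bases -83 to -74 from the start, and Egr1 had a further box, CCATATTAGG, at -105 to -96. TGACG was found in all 5 windows, against 22.0% of all windows. The Egr motif was found in those of Nr4a1 and Nptx2, against 3.31% of all windows. The full element TGACGTCA, searched as a separate motif that contains TGACG, was in none of the 5 (1.91% of all windows). Neither the AP-1 motif TGANTCA (7.33% of all windows) nor the Nr4a motif AAAGGTCA (1.29%) was in any of them. TATAAA was in that of Junb (14.3%). A match is a description of letters and not a site known to be bound.

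Values are linear intensities on the authors' scale, and levels are compared only within a probe set. The 6 arrays had nearly equal 2%-trimmed means, between 250.3 and 250.4, so a change common to every transcript could not be detected. The arrays differed by pool number. The added bacterial and phage controls averaged 5458 in SHA pool 1 and 12282 in SLA pool 1, against 640 to 2279 in the other pools. Antisense control probe sets of Gapdh and beta-actin averaged 1352, 30.1 and 365 in SHA pools 1, 2 and 3, and 1432, 21.3 and 219 in SLA pools 1, 2 and 3. Of 14 markers of hippocampal principal and other neurons 12 were measured, none of them at the floor in all pools, with a summed intensity of 15612 to 18519 in SHA and 13531 to 17236 in SLA pools. Microglial and immune markers (10 of 13 measured) summed to 2654 to 3504 in SHA and 4106 to 4783 in SLA pools, which did not overlap. In that list 7 of the 10 genes lay lower in SHA, Ctss and Cd74 among them, and Csf1r (1.09), Aif1 (0.55) and Itgam (0.09) lay higher. Ctss was the largest part of each sum, at 1407.6 to 2394.4 in SHA and 2056.4 to 3237.5 in SLA pools. Without Ctss the sums were 1110 to 1246 in SHA and 1366 to 2049 in SLA pools. Cd74 read 7.2 to 10.4 in SHA and 86.8 to 246.2 in SLA pools, and the sum without both genes was not taken. Summed levels of the markers of astrocytes (8 of 9 measured), oligodendrocytes (5 of 7), endothelium (5 of 7), choroid plexus (5 of 6), blood (2 of 3) and neighbouring regions (8 of 10) overlapped between the lines. Such sums follow their brightest genes, and single genes could still be apart. Vim read 85.8 to 127.1 in SHA and 185.9 to 284.4 in SLA pools, and Slc6a4 109.4 to 150.0 and 204.3 to 264.4. Other genes of these lists lay on either side.

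The comparison asked whether activity-regulated transcripts stood at different levels in the hippocampus of high and low avoidance rats 2 weeks after testing. No probe set of the 10 genes passed the test of the lines. For 16 of the 21 tested, the 95% interval still held a 2-fold difference in at least 1 direction. Of the 23 probe sets, 15 lay higher and 8 lower in SHA, with a median log2 difference (SHA minus SLA) of 0.09, against -0.01 over all probe sets tested. Among the 21 that entered the test, 13 lay higher and 8 lower, where 48.1% of all probe sets tested lay higher. The median size of the difference, without its sign, was 0.26 for the 23 and 0.25 for all probe sets other than controls. Arc, Fos on 2 of its probe sets and Egr2 lay lower in SHA, and Junb, Egr3 and Nptx2 lay higher, but pools of the lines overlapped on every one of the 23.

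**Figure D1:**
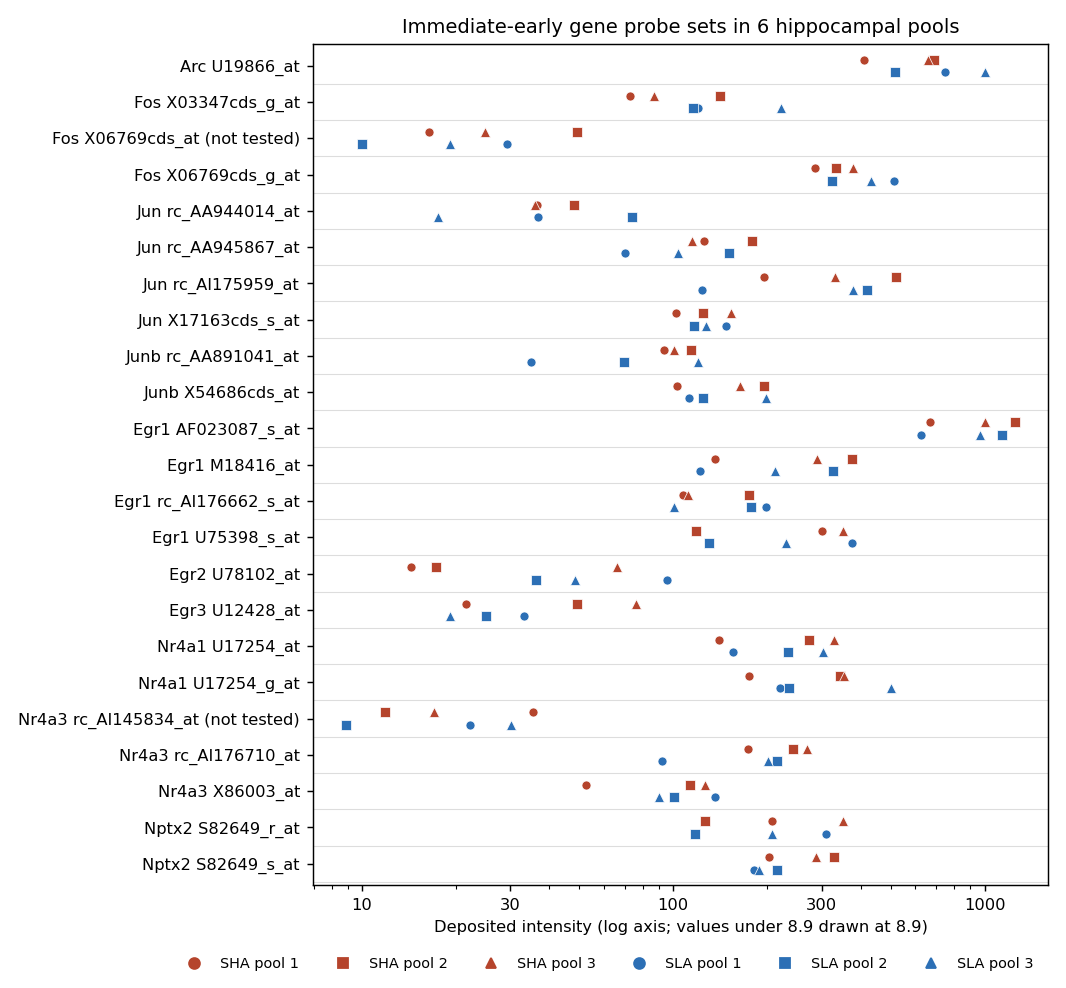
Deposited intensity (log axis) of the 23 probe sets in 3 SHA pools (red) and 3 SLA pools (blue), with the marker shape giving the pool number. The red and blue points overlap on every row, and for Egr1 on AF023087_s_at and M18416_at the circles of both lines sit left of the squares.

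Lines were compared with limma on log2 intensities with a floor of 8.9, with Benjamini-Hochberg adjustment over all 6555 probe sets tested. The filter on dim probe sets left 21 of the 23, and Fos X06769cds_at and Nr4a3 rc_AI145834_at fell below it. None of the 21 passed at an adjusted p under 0.05 (0% of all probe sets tested did), and each had an adjusted p of 1.00. None had an unadjusted p under 0.05, against 98 or 1.50% of all probe sets tested, and none did with the pool number as a block, against 5.26% of all. The lowest unadjusted p was 0.154, for Nptx2 on S82649_s_at. None of the 23 had pools that did not overlap between the lines, against 5.66% of all probe sets tested.

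Arc and Nptx2, the members that act at synapses rather than on DNA, lay on opposite sides. Arc (U19866_at) read 409.1, 689.6 and 656.7 in SHA pools 1, 2 and 3, and 749.0, 514.5 and 1006.7 in SLA pools 1, 2 and 3. SHA pool 1 was the lowest and SLA pool 3 the highest, and the other 4 pools interleaved. The means were 585 ± 153 in SHA and 757 ± 246 in SLA (SD), a log2 difference of -0.36 ± 0.32 (SE), with a 95% interval of -1.07 to 0.36. Nptx2 on S82649_s_at read 203.3, 328.9 and 288.6 in SHA and 181.3, 215.7 and 189.0 in SLA. SHA pools 2 and 3 stood above all SLA pools, and SHA pool 1 lay inside the SLA range. Its difference of 0.46 ± 0.30 had an interval of -0.21 to 1.13, and SHA was the higher within each of the 3 pool numbers, by 0.17, 0.61 and 0.61. A sign shared by all 3 pool numbers, in either direction, was found on 5 of the 21 probe sets tested, against 28.0% of all probe sets tested. Such a shared sign is thus no more frequent here than on the array. All 5 lay higher in SHA, and the share of all probe sets higher within all 3 numbers was not counted. The other 4 were Jun rc_AA945867_at, Nr4a3 rc_AI176710_at and Egr1 AF023087_s_at and M18416_at. With the pool number as a block in limma, Nptx2 on S82649_s_at had an unadjusted p of 0.0693 and an adjusted p of 0.83. The second Nptx2 probe set, S82649_r_at, made from the same accession, read 207.4, 127.0 and 350.3 in SHA and 310.7, 117.3 and 207.2 in SLA, a difference of 0.10 ± 0.47. On this probe set both pools numbered 2 were the lowest, while on S82649_s_at each was the highest of its line.

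Fos and Jun proteins pair as the AP-1 factor. Fos on X06769cds_g_at read 285.2, 334.3 and 376.8 in SHA and 513.4, 323.6 and 431.6 in SLA, so that SLA pools 1 and 3 stood above all SHA pools and SLA pool 2 lay among them. The difference was -0.33 ± 0.27. The probe set X03347cds_g_at also lay lower in SHA, with 72.6, 141.4 and 87.0 in SHA and 120.3, 116.2 and 221.8 in SLA (-0.60 ± 0.43). On both, SHA was lower within the pools numbered 1 and 3 and slightly higher within those numbered 2. The remaining, dim probe set X06769cds_at lay between 16.4 and 49.0 in SHA and between 10 and 29.3 in SLA, with a log2 difference of 0.61 and no test.

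Jun, the main partner of Fos, had 4 probe sets that differed by between -0.06 and 0.41. The probe set rc_AI175959_at read 195.4, 519.1 and 332.0 in SHA and 124.2, 420.1 and 376.9 in SLA (0.26 ± 0.51), with the pool numbered 1 the lowest of each line. On rc_AA945867_at SHA was the higher within all 3 numbers, by 0.84, 0.24 and 0.15, for a difference of 0.41 ± 0.42, which was 0.13 without SLA pool 1. The other Jun probe sets, X17163cds_s_at and rc_AA944014_at, differed by -0.06 ± 0.35 and 0.13 ± 0.67. Junb, a Jun relative that often dampens Jun activity, read 93.5, 113.8 and 100.3 in SHA and 34.9, 69.3 and 120.6 in SLA on rc_AA891041_at (0.62 ± 0.52). The SHA pools were close together and the SLA pools ranged over 3.46-fold, with SLA pool 3 above every SHA pool. The difference was 0.16 without SLA pool 1 and 1.06 without SLA pool 3. On X54686cds_at Junb averaged 154 ± 47.1 in SHA and 145 ± 46.9 in SLA, a difference of 0.08 ± 0.40.

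The Egr genes encode zinc finger factors, of which Egr1 is abundant in CA1 of the unstimulated hippocampus and Egr2 and Egr3 are less so. Egr1 on AF023087_s_at read 667.3, 1252.9 and 1001.0 in SHA and 623.3, 1134.6 and 968.9 in SLA. SHA was the higher within each pool number, by only 0.10, 0.14 and 0.05, while pools of a line differed by up to 1.88-fold in SHA and 1.82-fold in SLA. The difference of the lines was 0.10 ± 0.32, with an interval of -0.61 to 0.80. M18416_at gave the same order of the pool numbers, with 136.3, 374.3 and 289.4 in SHA and 121.8, 325.5 and 212.4 in SLA (0.27 ± 0.47). On U75398_s_at the pool numbered 2 was instead the lowest of each line, with 300.7, 118.0 and 350.7 in SHA and 375.8, 130.3 and 230.2 in SLA (0.05 ± 0.50). The probe set rc_AI176662_s_at differed by -0.25 ± 0.40. Both pools numbered 2 were thus the highest of their line on 2 Egr1 probe sets and the lowest on U75398_s_at. The antisense controls were likewise lowest in both pools numbered 2, and their part in these readings was not tested. In this array's naming, s marks a probe set whose probes can match several transcripts, and r one whose probes were chosen by relaxed rules, so what each of these reads besides its named gene is uncertain.

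**Figure D2:**
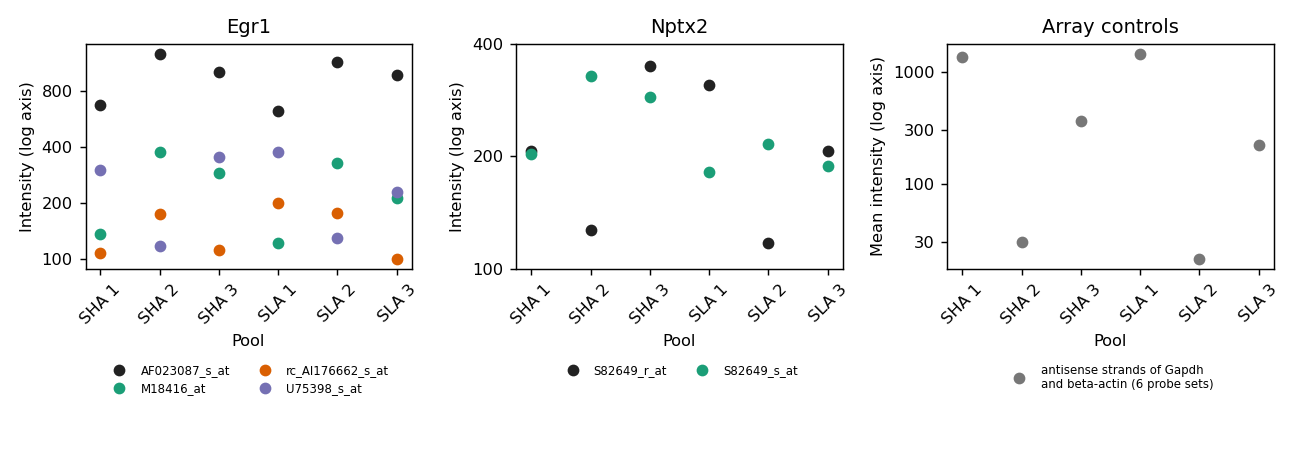
Intensity (log axes) of the 4 Egr1 and the 2 Nptx2 probe sets in each SHA and SLA pool, beside the geometric mean of 6 antisense control probe sets for Gapdh and beta-actin. Egr1 on U75398_s_at and Nptx2 on S82649_r_at were lowest in both pools numbered 2, as were the controls, while AF023087_s_at, M18416_at and S82649_s_at were highest there within each line.

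Egr2, the family member whose promoter stretch is shown above, had the largest difference of the 23 and one of the widest spreads. U78102_at read 14.4, 17.3 and 65.8 in SHA and 95.2, 36.3 and 48.4 in SLA. SHA pools 1 and 2 lay below all SLA pools, and SHA pool 3 exceeded SLA pools 2 and 3. The difference of -1.12 ± 0.76 had an interval of -2.82 to 0.58, and it varied with single pools. It was -0.71 without SHA pool 1, -0.72 without SLA pool 1, -1.80 without SHA pool 3 (unadjusted p 0.0359 and adjusted p 1.00 in limma) and -0.31 without both pools numbered 1. It was -0.64 with the floor at the 25th percentile of all values, which is 25.8 and above 2 of the SHA values. Egr3 on U12428_at leaned the other way, with 21.6, 49.0 and 75.8 in SHA and 33.3, 25 and 19.2 in SLA (0.78 ± 0.69). Here SHA pools 2 and 3 lay above all SLA pools and SHA pool 1 lay among them, and the interval of -0.77 to 2.32 was wide.

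Nr4a1 and Nr4a3 encode orphan nuclear receptors induced by cAMP and calcium. Nr4a1 on U17254_at read 140.2, 272.1 and 329.2 in SHA and 155.8, 233.2 and 302.2 in SLA, nearly the same set of values in both lines (0.06 ± 0.40). On U17254_g_at it averaged 291 ± 100.4 in SHA and 319 ± 158 in SLA, a difference of -0.09 ± 0.41. The pool numbered 1 was the lowest of its line on both probe sets. Nr4a3 on rc_AI176710_at read 174.0, 241.8 and 269.3 in SHA and 91.8, 214.9 and 201.0 in SLA, and SHA was the higher within all 3 numbers, by 0.92, 0.17 and 0.42. The difference was 0.50 ± 0.40, with an unadjusted p of 0.236 and one of 0.0815 with the pool number as a block (adjusted p 0.83). It was 0.11 without SLA pool 1. X86003_at lay on the other side, at 97.3 ± 39.3 in SHA and 109 ± 24.2 in SLA (-0.24 ± 0.46). The dim rc_AI145834_at lay between 11.9 and 35.4 in SHA and between 5.1 and 30.2 in SLA, with 1 pool under the floor and no test.

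**Figure D3:**
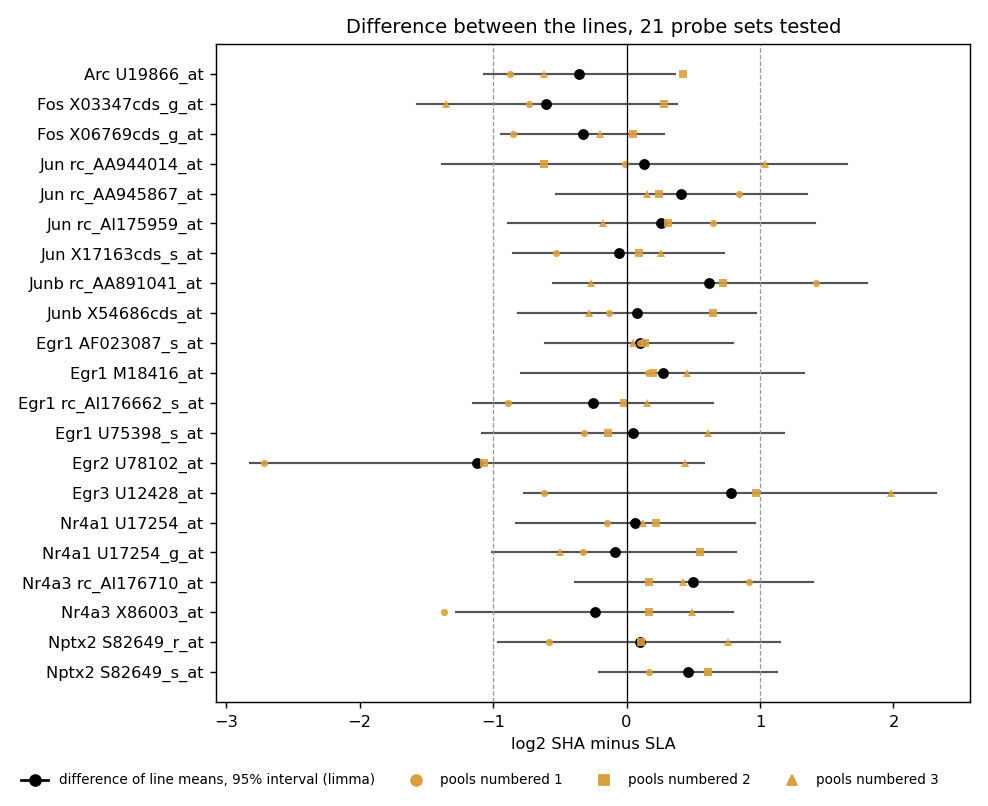
log2 difference (SHA minus SLA) of the 21 probe sets tested, with black points for the difference of the line means, grey lines for limma's 95% interval and orange markers for the difference within each pool number. Every interval spans 0, and the dashed lines mark a 2-fold difference in either direction.

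The precision of the comparison varied by probe set. The half-width of the 95% interval ran from 0.61 for Fos X06769cds_g_at to 1.70 for Egr2, with a median of 0.94, against 0.98 over all probe sets tested. The interval lay within a 2-fold difference on both sides for 5 of the 21 probe sets: Fos X06769cds_g_at, Jun X17163cds_s_at, Junb X54686cds_at, Egr1 AF023087_s_at and Nr4a1 U17254_at. For the other 16, Arc and Nptx2 among them, a 2-fold difference in at least 1 direction stayed inside the interval. Intervals are for each probe set alone and are not adjusted for their number. With the pool number as a block, 13 intervals lay within 2-fold. Leaving out SHA pool 1, 2 or 3 gave 3, 1 and 1 such intervals, and leaving out SLA pool 1, 2 or 3 gave 4, 0 and 1.

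Members also differed by pool number. Both pools numbered 2 lay above both pools numbered 1 on 10 of the 21 probe sets tested (31.1% of all probe sets tested did), and below them on 2 (31.3%). Besides Egr1 AF023087_s_at and M18416_at, the 10 were 3 of Jun, 2 of Nr4a1 and 1 each of Junb, Nr4a3 and Nptx2. The 2 were Egr1 U75398_s_at and Nptx2 S82649_r_at. Of the 23 probe sets, 9 were lowest in SHA pool 1, where the median deviation from a probe set's own mean was -0.42, against -0.05 for all probe sets tested. In the pools numbered 1, 8 probe sets lay higher and 15 lower in SHA (median -0.32, against -0.09 over all probe sets tested). In those numbered 2, 19 lay higher and 4 lower (median 0.22, against -0.05 over all). In those numbered 3, 15 lay higher and 8 lower (median 0.15, against 0.07 over all). How many of all probe sets lay higher within each number, or were lowest in each pool, was not counted. SHA pool 1 and SLA pool 1 were also the arrays with the brightest added controls, and the part of that in these values was not tested.

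Genes around the members were read from lists by role, with 75 genes measured on 141 probe sets, of which 117 were tested. None passed the adjusted test, 1 had an unadjusted p under 0.05 (1.50% of all probe sets tested did), and 4 or 3.42% had pools that did not overlap (5.66% of all). With the pool number as a block, 5 or 4.27% had an unadjusted p under 0.05, against 5.26% of all probe sets tested, and none passed the adjusted test. These were Dusp6 U42627_at (0.00353), Gria1 X17184_at (0.013), Gria2 M36419_s_at (0.0131), Ier5 rc_AA800604_g_at (0.016) and Map2k1 D14591_s_at (0.0377). Ier5 lay lower in SHA on this probe set (-1.21 ± 0.54), with overlapping pools, and the others lay higher. The other Ier5 probe set differed by -0.45 ± 0.75. Over all probe sets tested 48.1% lay higher in SHA, a share that stands beside each list count below. Many genes had several probe sets, so these are not counts of independent genes. Upstream kinases and activators had 18 of 22 probe sets higher and 4 lower in SHA, with a median of 0.16. Camk2b, a CaM kinase II subunit, was the one with pools apart on M16112_at, where it read 2747.4, 2907.8 and 2941.5 in SHA and 2470.9, 2741.6 and 2641.9 in SLA. That was a difference of only 0.13 ± 0.22, and its other probe set differed by 0.02 ± 0.30. Creb1, the factor that binds the cAMP response element, differed by 0.26 ± 0.62. Relatives of the AP-1 proteins had 1 of 4 higher and 3 lower (median -0.41), with Jund, an AP-1 subunit expressed at steady levels, at -0.44 ± 0.42. Relatives and partners of the Egr and Nr4a factors had 3 of 8 higher and 5 lower (median -0.13), with both probe sets of Nr4a2 near 0, at 0.09 ± 0.44 and -0.07 ± 0.37. Fosb and Srf were named by no probe set used here.

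Other early response genes had 31 of 46 probe sets higher and 15 lower (median 0.18). Dusp6, the phosphatase that switches off ERK, read 176.6, 275.3 and 267.7 in SHA and 82.0, 163.8 and 102.8 in SLA on U42627_at. Every SHA pool lay above every SLA pool, for a difference of 1.08 ± 0.38 with an unadjusted p of 0.0182 and an adjusted p of 1.00. Its other probe set differed by 0.68 ± 0.39 with overlapping pools. Zfp36, which promotes decay of AU-rich RNAs, also had pools apart on rc_AA800613_at (0.35 ± 0.36) but not on its other probe set (-0.09 ± 0.32), and Cebpd, a C/EBP factor, on M65149_at (-0.14 ± 0.35). Homer1, a postsynaptic scaffold with an activity-induced short form, lay higher on all 6 of its probe sets, by 0.09 to 0.61. Pools overlapped on each. It lay higher on 4 of the 6 without SLA pool 1, and on 4 with the replicate block and array weights. Without SHA pool 2 or without SLA pool 3 it lay higher on 5.

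Later effector genes had 11 of 23 higher and 12 lower (median -0.14). Bdnf, the neurotrophin, had 5 probe sets tested with differences between -0.34 and 0.24. Partners of Nptx2 had 9 of 14 higher and 5 lower (median 0.19). Nptx1, the related pentraxin, differed by -0.33 ± 0.47, -0.84 ± 0.80 and -0.11 ± 0.35 on its 3 probe sets, and Nptxr, the membrane-bound pentraxin receptor, by -0.57 ± 0.88. The AMPA receptor subunit genes Gria1 to Gria4 lay higher on all 9 of their probe sets tested, by 0.12 to 0.84, none past the test. A further, dim Gria4 probe set without a test lay lower (-0.54). All 9 stayed higher with quantile normalization and with median centring, whereas without SLA pool 1 only 4 of the 9 lay higher and 5 lower. With array weights, without SHA pool 2 and without both pools numbered 1, 7 lay higher and 2 lower. Without SHA pool 3, 8 lay higher and 1 lower.

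**Figure D4:**
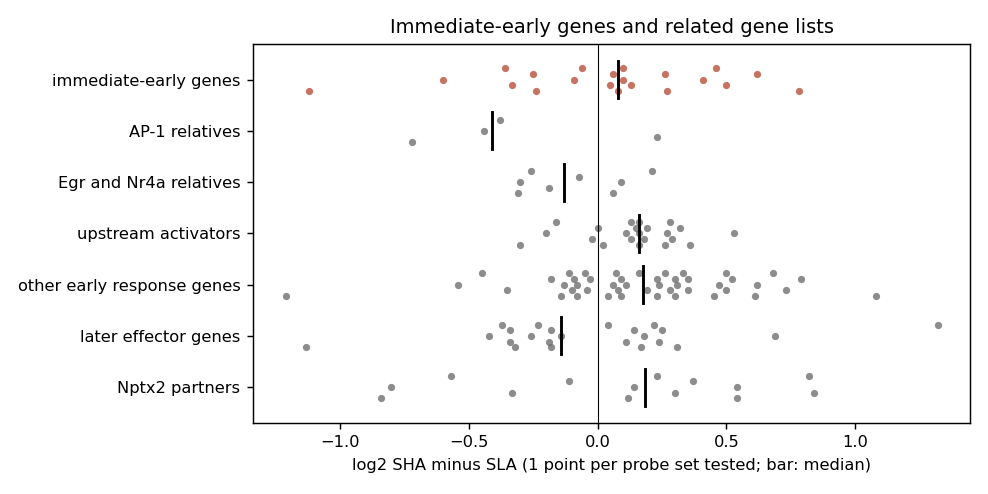
log2 difference (SHA minus SLA) of each probe set tested for the immediate-early genes (red) and for 6 related lists (grey), with black bars at the medians. The median was 0.08 for the immediate-early genes tested and ran from -0.41 to 0.19 over the 6 lists, with points on both sides of 0 in each.

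Genes whose pattern over the 6 pools was most like that of a member were found by the root mean square difference of log2 values centred on each probe set's mean, among the probe sets tested. For Egr1 (AF023087_s_at) these were Atp2c1 at 0.055, Col5a2 at 0.057 and Psmd2 at 0.068. For Fos (X06769cds_g_at) they were Plcd4 at 0.089, Ptpn1 at 0.089 and Strn at 0.102. The nearest to Arc were Aifm2 at 0.144, Slfn5 at 0.155 and Usp40 at 0.168, and the nearest to Nptx2 (S82649_s_at) were P3h4 at 0.10, Ptprs at 0.122 and Sptan1 at 0.130. No other immediate-early member was among the 3 nearest to any of these 4. Only 3 genes were kept out of all those tested, so this cannot show whether members varied together. Egr1 had the closest neighbours and Arc the least close, over the same 6 arrays.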

How the data were processed

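Total RNA of 6 hippocampal pools was measured on one-colour oligonucleotide arrays, and the deposited table holds 1 intensity, on a linear scale, for each probe set of each pool. How the authors scaled it is not stated in the labels, and detection calls were not used here. Per the values, each array had been scaled to a common trimmed mean, and no further normalization was made. Of 8799 probe sets, 59 are array controls. The other 8740 were floored at 8.9 (their 10th percentile), log2 was taken, and the dimmest 25% by mean was left out. The remaining 6555 were compared in limma 3.58.1 (R 4.3.3; lmFit, eBayes with an intensity trend, two-sided). The number of arrays limits the precision, and p-values measure the spread between pools. The pipeline was tested on simulated data.

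Probe sets were named by the platform annotation, and symbols were brought up to date by gene number in a RefSeq table of GRCr8. Promoters are RefSeq's, from the same build. All probe sets of the 10 members are named, with genes of the related lists that had an unadjusted p under 0.05 or pools apart, and the best known of each role. Members, lists, tests and alternatives were chosen with earlier results of these data known. The labels do not say what pools of one number have in common. After subtracting each line's mean, pools with the number 1, 2 or 3 correlated across lines at 0.44, 0.68 and 0.13. The numbers were therefore treated as a possible pairing of the pools, used as a block in an alternative fit. Standard errors, intervals and p-values are from the fit without pool number unless the block is named. Results with the number as a block are printed where a call or a count moves. SHA pool 3 correlated more with SLA pool 1, at 0.16. Alternatives were 2 other normalizations, other floors and filters, no trend, array weights, the block, block with weights, and leaving out pools.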

Additional observations from a re-analysis of the deposited data

How the results depend on the processing

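With 3 pools per line, the 95% interval held a 2-fold difference for 16 of the 21 probe sets tested. The number of intervals within 2-fold, 5 as reported, was 3 with no trend, 13 under the replicate block, 9 if arrays were weighted, 17 if both were applied, 7 without both pools numbered 1, 0 to 4 without single pools and 4 to 6 in the other settings. Under 17 other settings no immediate-early probe set and no probe set of the related lists passed limma's adjusted test. Of all probe sets, 12 or 0.183% passed with the replicate block and array weights and 0 in each of the other 16 settings. In the related lists the count at an unadjusted p under 0.05, 1 as reported, was 5 or 4.27% with the block. Of all probe sets tested, 5.26% had such a p with the block. The count was 6 with array weights, 16 with both, 0 to 5 without single pools and 1 to 2 in the other settings. The share of all probe sets was not counted there, so these counts cannot be told from a change over the whole array. The lowest adjusted p of a member in any setting was 0.22. The count of members at an unadjusted p under 0.05, 0 as reported, was 1 with array weights (Fos X03347cds_g_at, -1.04), 1 with the replicate block and array weights (Nptx2 S82649_s_at, 0.56), 0 with the replicate block alone, and between 0 and 1 on leaving out single pools (1 on leaving out SHA pool 3, Egr2). Except with the block alone, the share of all probe sets at such a p was not counted in these settings. These single calls therefore cannot be told from a change over the whole array. The median over the 23 probe sets ran from -0.06 (without SLA pool 1) to 0.29 (without SLA pool 3) with 1 pool left out, against a spread of 0.30 between pools.

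Of 353 values of single probe sets, rounded as printed, 41 changed sign, on 14 of the 21 probe sets, and 312 did not. A value that rounded to no difference, as for Jun rc_AA944014_at without SHA pool 2, was counted among the 312. The cause of the sign changes was not tested. With array weights the sign turned for Jun rc_AI175959_at (-0.17), Junb rc_AA891041_at (-0.02) and X54686cds_at (-0.27), Egr1 AF023087_s_at (-0.04) and rc_AI176662_s_at (0.15) and Nr4a1 U17254_at (-0.24). With the replicate block and array weights it turned for Arc (0.11), Jun rc_AA944014_at (-0.29) and X17163cds_s_at (0.05), Egr1 U75398_s_at (-0.05), Nr4a1 U17254_g_at (0.29) and Nr4a3 X86003_at (0.04). It turned for Jun X17163cds_s_at with quantile normalization (0.01) and for rc_AA944014_at with the floor at the 25th percentile (-0.05). Without both pools numbered 1 it turned for Jun X17163cds_s_at (0.18), Egr1 rc_AI176662_s_at (0.07), Nr4a1 U17254_g_at (0.03) and Nr4a3 X86003_at (0.33).
With 1 pool left out, the probe sets that changed sign ranged as follows: Jun rc_AA944014_at -0.39 to 0.65, Jun rc_AI175959_at -0.30 to 0.62, Jun X17163cds_s_at -0.21 to 0.09, Junb X54686cds_at -0.12 to 0.35, Egr1 AF023087_s_at -0.15 to 0.35, Egr1 M18416_at -0.10 to 0.69, Egr1 U75398_s_at -0.34 to 0.53, Nr4a1 U17254_at -0.19 to 0.43, Nr4a1 U17254_g_at -0.30 to 0.29, Nr4a3 X86003_at -0.48 to 0.16 and Nptx2 S82649_r_at -0.27 to 0.46. The others kept their sign: Arc -0.61 to -0.12, Fos X03347cds_g_at -0.88 to -0.30, Fos X06769cds_g_at -0.51 to -0.18, Jun rc_AA945867_at 0.13 to 0.69, Junb rc_AA891041_at 0.16 to 1.06, Egr1 rc_AI176662_s_at -0.55 to -0.06, Egr2 -1.80 to -0.71, Egr3 0.37 to 1.27, Nr4a3 rc_AI176710_at 0.11 to 0.73 and Nptx2 S82649_s_at 0.31 to 0.66. Filters on dim probe sets do not change a difference.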
